A study of Mus musculus with 2 samples.

Results

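Protein arginine methyltransferases transfer methyl groups from S-adenosylmethionine to arginine side chains of histones, splicing proteins and other RNA-binding proteins. LLY-283 is an inhibitor of one of them, PRMT5, and competes with that cofactor. The genes described here are 10 of the 55450 gene identifiers in each library, taken by symbol and not by a cutoff on measured values. They were chosen with earlier results of these data known. They are the methyltransferase genes Prmt1, Prmt2, Prmt3, Carm1, Prmt5, Prmt6, Prmt7 and Prmt9 and the genes of the PRMT5 partners Wdr77 and Clns1a.

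The products fall into classes by the mark they leave. PRMT5 and PRMT9 make symmetric dimethylarginine, PRMT7 makes monomethylarginine, and PRMT1, PRMT2, PRMT3, CARM1 and PRMT6 make asymmetric dimethylarginine. WDR77, also called MEP50, is the constant partner of PRMT5 in its active complex. CLNS1A, also called pICln, brings the Sm proteins of the spliceosome to that complex, and RIOK1 and COPRS are adaptors for other substrates.

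EMT6 is a mouse mammary tumour line, labelled TNBC, and 200000 of its cells were injected under the skin of immunocompetent female BALB/c mice bought at 5 to 6 weeks of age. Each of the 2 libraries came from the tumours of 3 mice pooled into a single sample, so no animal can be followed. In the Olaparib + LLY-283 library the mice had received LLY-283 at 50 mg/kg in cycles of 3 days on and 4 days off, together with the PARP inhibitor Olaparib at 50 mg/kg every day. In the Combo library they had also received an antibody to PD-1 at 200 µg every 3 days. Both libraries thus carried LLY-283 and Olaparib, and the comparisons here hold no library without LLY-283.

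Transcripts were tagged at their 3′ end and counted as UMIs, unique molecular identifiers that mark single captured molecules. UMIs were summed over the cells of a class in a library and divided by all UMIs of that class to give CPM, a level on a scale shared by all classes. CPM of tags is not divided by transcript length, so each gene was compared with itself across cells and libraries, and no level was compared between genes. All intervals are 95% intervals, cover counting error only, and say nothing of how pools of mice vary. With 1 library per treatment there was no test, and what anti-PD-1 added, which mice were pooled and how each library was made cannot be told apart.

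There were 16115 cells with 147214934 UMIs after Olaparib + LLY-283 and 7542 cells with 162522700 UMIs after Combo, and 39 cell barcodes occurred in both libraries. The Combo library stood apart in quality, since 21.03% of its cells were left out by the filter on mitochondrial UMIs and gene number, against 0.534% in the other. Clusters, made without the 10 genes, were named from marker genes. The tumor-like class held 9604 and 1987 cells, in the order Olaparib + LLY-283 then Combo used throughout, with a median of 8870 and 49325 UMIs per cell. Its name rested on the keratins Krt8 and Krt18, at 819 and 105 CPM in the Olaparib + LLY-283 library. The epithelial marker Epcam was low, at 3.30 and 2.93 CPM, and did not set the class apart. In DC-like cells Epcam was 4.65 CPM (2 UMIs) and 19.3 CPM (28 UMIs). All 10 macrophage, all 10 neutrophil and all 12 T/NK markers were over 2-fold above the other classes in both libraries, and Flt3 and Clec9a were at 0 in the DC-like class after Olaparib + LLY-283. The clusters left unnamed held 1593 and 1315 cells, and a keratin cluster of low depth that was also left unnamed held 555 and 488. Among the unnamed was cluster b7, of low depth, with 26 and 493 cells. All 10 neutrophil markers were over 2-fold above the other cells in it, with 0 among its 10 leading genes. It is therefore not part of the neutrophil-like and immune-like sums, which lack more cells in the Combo library.

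All 10 genes were protein-coding in GENCODE M21, the mm10 annotation whose identifiers the files used. Prmt5 lay on chromosome 14 at 54507187 to 54517525 on the minus strand. Wdr77 lay on chromosome 3 at 105959369 to 105970037 on the plus strand, where it overlapped Atp5f1 on the opposite strand. Clns1a lay on chromosome 7 at 97696634 to 97720796 on the plus strand, and Prmt1 on the same chromosome at 44975989 to 44986568 on the minus strand. Prmt2 lay on chromosome 10 at 76207222 to 76237865 on the minus strand. Carm1 overlapped Yipf2, and Prmt7 overlapped Smpd3, in both cases on the opposite strand, while Prmt1 and Prmt5 overlapped no other gene. On the same strand, Wdr77 overlapped Gm42890, Prmt2 overlapped Mir678, Prmt3 overlapped Gm44822 and Prmt9 overlapped Gm45286.

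Across the phases of the cell cycle, Prmt5 and Wdr77 were higher outside G1 and Prmt2 was lower, as given further on, and the 250 bases before the RefSeq start of these genes are shown for that reason. They are written 5′ to 3′ on the coding strand from RefSeq on GRCm38.p6, and capitals mark CCAAT, the box bound by NF-Y, or its reverse complement ATTGG. The window of Prmt5 is chr14:54517471-54517720 on the minus strand, that of Wdr77 chr3:105959248-105959497 on the plus strand and that of Prmt2 chr10:76237866-76238115 on the minus strand. By the GENCODE positions, the windows of Prmt5 and Wdr77 reach into the annotated gene, and that of Prmt2 does not. The windows of Prmt1, Prmt3, Prmt7 and Clns1a, searched below, also reach into the gene.
Prmt5: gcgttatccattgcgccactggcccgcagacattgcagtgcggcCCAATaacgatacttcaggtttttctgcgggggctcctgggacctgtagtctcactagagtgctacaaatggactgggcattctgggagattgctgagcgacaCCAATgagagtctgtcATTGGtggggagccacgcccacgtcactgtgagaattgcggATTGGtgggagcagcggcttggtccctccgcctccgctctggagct
Wdr77: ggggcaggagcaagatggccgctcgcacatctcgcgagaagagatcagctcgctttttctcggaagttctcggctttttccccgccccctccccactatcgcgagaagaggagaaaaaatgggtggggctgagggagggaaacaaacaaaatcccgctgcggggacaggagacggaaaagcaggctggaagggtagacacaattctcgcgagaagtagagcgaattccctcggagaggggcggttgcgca
Prmt2: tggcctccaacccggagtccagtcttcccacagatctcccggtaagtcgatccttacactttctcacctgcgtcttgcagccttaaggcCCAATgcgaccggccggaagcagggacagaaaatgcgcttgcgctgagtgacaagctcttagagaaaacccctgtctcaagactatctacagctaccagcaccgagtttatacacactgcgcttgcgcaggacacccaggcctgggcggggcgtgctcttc

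The window of Prmt5 held the CCAAT letters 4 times over both strands, that of Prmt1 3 times, those of Prmt2 and Prmt3 1 time each, and the other windows 0 times. Among 32851 promoter windows of this length, 33.9% held CCAAT at least 1 time and 2.79% held it 3 or more times. TTCCCGC, the core bound by E2F, occurred in the windows of Prmt1 and Clns1a and in 3.82% of all windows. GGGCGG, the GC box, occurred in the windows of Prmt1, Wdr77, Prmt2, Prmt3 and Prmt7 and in 32.7% of all windows. Windows were found for 9 of the 10 genes, all except Carm1, and the letters searched were chosen after the levels were known, so these matches are a description of the sequence alone.

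Prmt5, the target of LLY-283, was at nearly the same level in the tumor-like cells of both libraries. It had 3629 UMIs there in the Olaparib + LLY-283 library, or 35.4 CPM (34.3 to 36.6), and 3834 UMIs in the Combo library, or 37.4 CPM (36.3 to 38.6). The intervals of the levels overlapped. The log2 ratio of Combo over Olaparib + LLY-283 was 0.08 (0.01 to 0.15), beside a median of 0.06 over all 13335 genes with at least 100 UMIs.

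Wdr77 was 58.0 CPM (56.5 to 59.5) after Olaparib + LLY-283 and 66.2 CPM (64.6 to 67.8) after Combo, and these intervals do not overlap. Its log2 ratio was 0.19 (0.14 to 0.24). Clns1a was 67.5 CPM (65.9 to 69.1) and 71.7 CPM (70.1 to 73.3), with a log2 ratio of 0.09 (0.04 to 0.14). Both partners of PRMT5 were thus slightly higher in the Combo library, Wdr77 by more than the median gene and Clns1a by close to it.

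Among the genes for asymmetric dimethylation, Prmt1, whose product makes most of that mark in cells, was 254 and 249 CPM, with a log2 ratio of -0.03 (-0.05 to -0.0040). Prmt2, for a family member with an SH3 domain, was 36.5 CPM (35.3 to 37.7) and 43.5 CPM (42.3 to 44.8), with a log2 ratio of 0.26 (0.19 to 0.32). Prmt3, for a ribosomal protein methyltransferase, was 20.3 and 23.3 CPM and its log2 ratio was 0.20 (0.12 to 0.29). Prmt2 and Prmt3 were thus higher in the Combo library beyond counting error, and the levels of Prmt2 were 1.19-fold apart.

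Carm1, for a coactivator of transcription, was 26.4 and 27.8 CPM, with a log2 ratio of 0.07 (-0.0026 to 0.15). Prmt6, for a histone methyltransferase, was 20.5 and 20.2 CPM, with a log2 ratio of -0.02 (-0.11 to 0.06). Prmt7 was 30.3 and 32.4 CPM and had a log2 ratio of 0.10 (0.03 to 0.17). Prmt9, for the enzyme that methylates the splicing factor SAP145, was 6.47 and 7.18 CPM from 663 and 735 UMIs, with a log2 ratio of 0.15 (-0.0047 to 0.30). For Carm1, Prmt6 and Prmt9 the interval of the ratio held 0.

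Of the 10 genes, 0 were over 1.5-fold higher in the Combo library, where 4.75% of all genes tested were, and 0 were over 1.5-fold lower, where 2.19% were. The interval of the ratio lay above 0 in 6 of the 10 (39.6% of all genes) and below 0 in 1, Prmt1 (20.5%). The median log2 ratio of the 10 was 0.09.

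**Figure D1:**
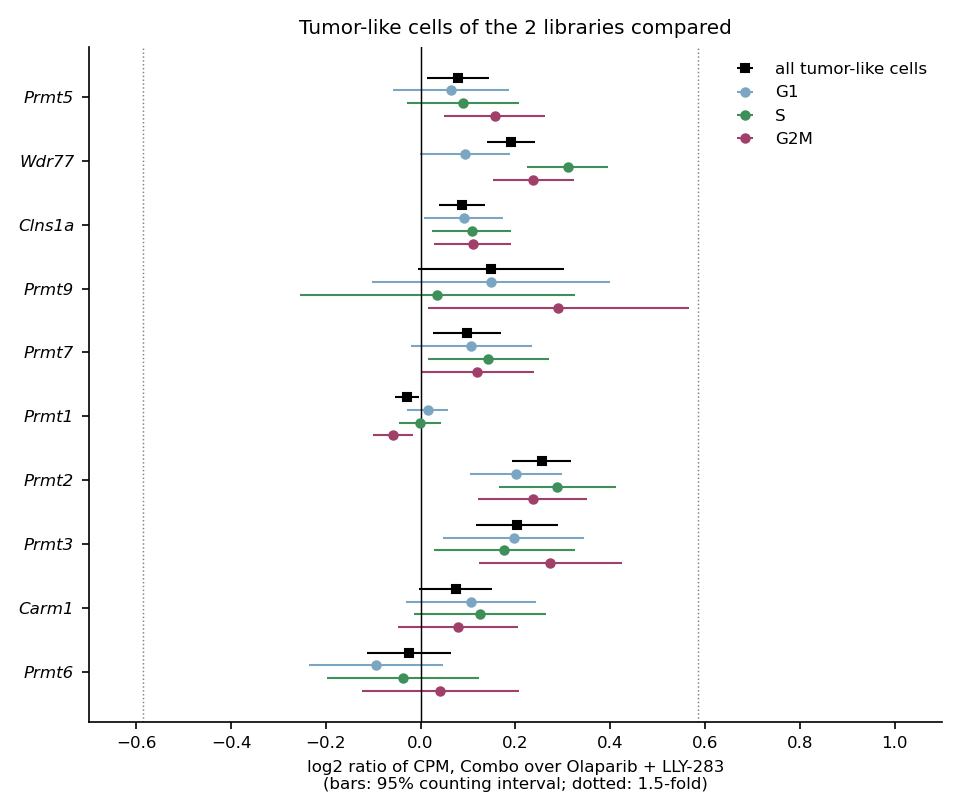
Log2 ratio of CPM, Combo over Olaparib + LLY-283, for each of the 10 genes in all tumor-like cells (black squares) and in those called G1, S or G2M (colored points), with bars for the 95% counting interval and dotted lines at 1.5-fold. All ratios lie inside the dotted lines, and that of Wdr77 is 0.09 in G1, 0.31 in S and 0.24 in G2M.

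Per cell, the share with at least 1 UMI of Prmt5 was 27.7% and 71.4%, but the Combo cells were far deeper. At a depth of 3000 UMIs in every cell, which leaves out 592 and 41 shallower tumor-like cells, the expected share was 9.37% (8.77 to 9.99) and 9.75% (8.48 to 11.2). At this depth the share was 14.8% and 16.1% for Wdr77, 17.7% and 18.2% for Clns1a and 51.1% and 49.7% for Prmt1. The apparent gap between the libraries in Prmt5-positive cells was not detectable at equal depth.

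For the remaining genes the share at 3000 UMIs ran from 2.01% and 2.09% for Prmt9 to 10.8% and 12.3% for Prmt2. In macrophage-like cells at the same depth, Prmt5 had a UMI in 4.75% (2.21 to 8.24) of 219 cells and 5.63% (3.85 to 7.98) of 530 cells, with the medians before thinning at 1892 and 11022 UMIs. No class known to lack Prmt5 was at hand as a background, and the keratin levels below stand in for it.

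**Figure D2:**
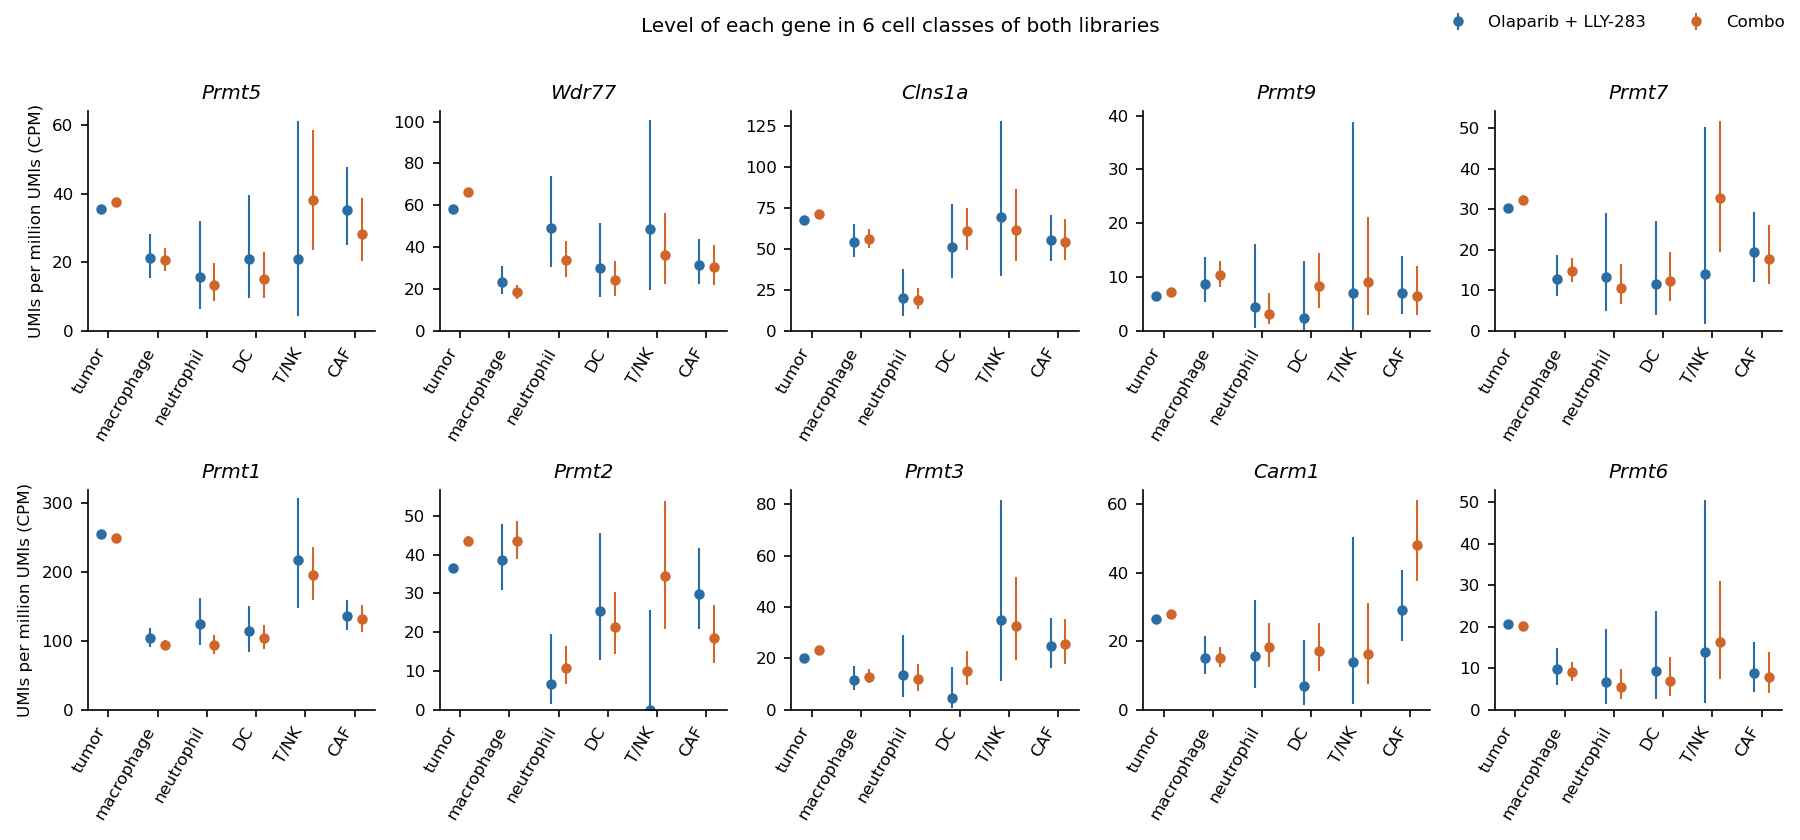
CPM of each gene in tumor-like, macrophage-like, neutrophil-like, DC-like, T/NK-like and CAF-like cells, with blue for Olaparib + LLY-283 and orange for Combo, a point for each summed level and a bar for its 95% Poisson interval. Prmt5, Wdr77 and Prmt1 are higher in tumor-like than in macrophage-like cells in both libraries, and Prmt2 is at 43.5 CPM in both classes of the Combo library.

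Most of the family was higher in tumor-like than in macrophage-like cells, in both libraries. Wdr77 was 23.5 CPM (51 UMIs) and 18.4 CPM (129 UMIs) in the macrophage-like cells, which gave a tumor-like level 2.47-fold and 3.59-fold higher, or log2 ratios of 1.302 (0.91 to 1.73) and 1.85 (1.59 to 2.11). Prmt5 was 21.2 CPM (46 UMIs) and 20.6 CPM (144 UMIs) there, 1.67-fold and 1.82-fold below the tumor-like level, with log2 ratios of 0.74 (0.32 to 1.19) and 0.87 (0.62 to 1.12). Clns1a, at 54.4 and 56.2 CPM, was closer to its tumor-like level, with log2 ratios of 0.31 (0.05 to 0.59) and 0.35 (0.20 to 0.50).

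The methyltransferase genes separated into those that followed this pattern and 2 that did not. Prmt1 had log2 ratios of 1.29 and 1.41, Prmt7 of 1.23 and 1.13, Prmt6 of 1.09 and 1.17, Prmt3 of 0.81 and 0.88 and Carm1 of 0.80 and 0.88, each with both intervals above 0. Prmt2 was 38.7 and 43.5 CPM in macrophage-like cells, beside 36.5 and 43.5 CPM in tumor-like cells, with log2 ratios of -0.09 (-0.40 to 0.24) and 0.0003 (-0.17 to 0.17). Prmt9 was 8.76 CPM (19 UMIs) and 10.3 CPM (72 UMIs) in macrophage-like cells, with log2 ratios of -0.44 (-1.09 to 0.31) and -0.52 (-0.87 to -0.15), so its level was the higher one in macrophage-like cells where the counts allow a direction.

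Over the 10 genes, 7 were over 1.5-fold higher in tumor-like cells in each library, where 34.8% and 35.8% of all genes tested were, and 0 were over 1.5-fold lower, where 21.4% and 24.3% were. Their median log2 ratio was 0.81 and 0.88, beside 0.23 and 0.21 over all genes tested. All 10 reached the minimum of 100 UMIs on the tumor-like side alone, and in the macrophage-like cells they had 19 to 226 and 63 to 658 UMIs, so the counts rest on unequal depth. The macrophage-like class was held mainly by different clusters in the libraries. The largest, with 611 and 72 cells, was mostly from the Olaparib + LLY-283 library, and the next, with 189 and 417 cells, mostly from the Combo library.

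Against all immune-like cells summed, 1899 and 1753 cells, 7 of the 10 were again over 1.5-fold higher in tumor-like cells in each library (31.7% and 35.4% of all genes tested), with 25 to 456 and 94 to 1176 UMIs in the immune-like cells. Prmt5 had log2 ratios of 0.77 (0.44 to 1.12) and 0.90 (0.71 to 1.103). These values depended on how doublets were treated. With doublets kept, the tumor-like class shrank to 4917 and 1053 cells, the counts were 0 and 4, beside 3.21% and 19.4% of all genes tested under that setting, and the log2 ratios of Prmt5 were 0.21 and 0.34. With all ratios centred on the median gene, the counts were 4 and 6, beside 23.4% and 28.1%. Prmt9 had ratios of -0.12 (-0.69 to 0.52) and -0.31 (-0.61 to 0.0032) against immune-like cells, and with the mean of single cells these turned to 0.38 and 0.11.

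Tumour keratin RNA was present in every non-tumour class. The summed level of Krt8 and Krt18 in macrophage-like cells was 23.8% and 10.99% of that in tumor-like cells, and in neutrophil-like cells it was 47.1% and 24.3%. RNA carried over from tumour cells would bring every tumour transcript at that same percentage, so a gene at or below it is at background. In macrophage-like cells Prmt5 stood at 59.8% and 54.9% of its tumor-like level and Wdr77 at 40.6% and 27.8%, above the keratin percentage in both libraries. After a subtraction that takes all keratin UMIs outside tumor-like cells as carried over, an alternative chosen after seeing the data, Prmt5 was 47.3% and 49.3% of its tumor-like level and Wdr77 22.0% and 18.9%. Prmt2, at 108% and 100%, and Clns1a, at 74.6% and 75.8%, were little moved.

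**Figure D3:**
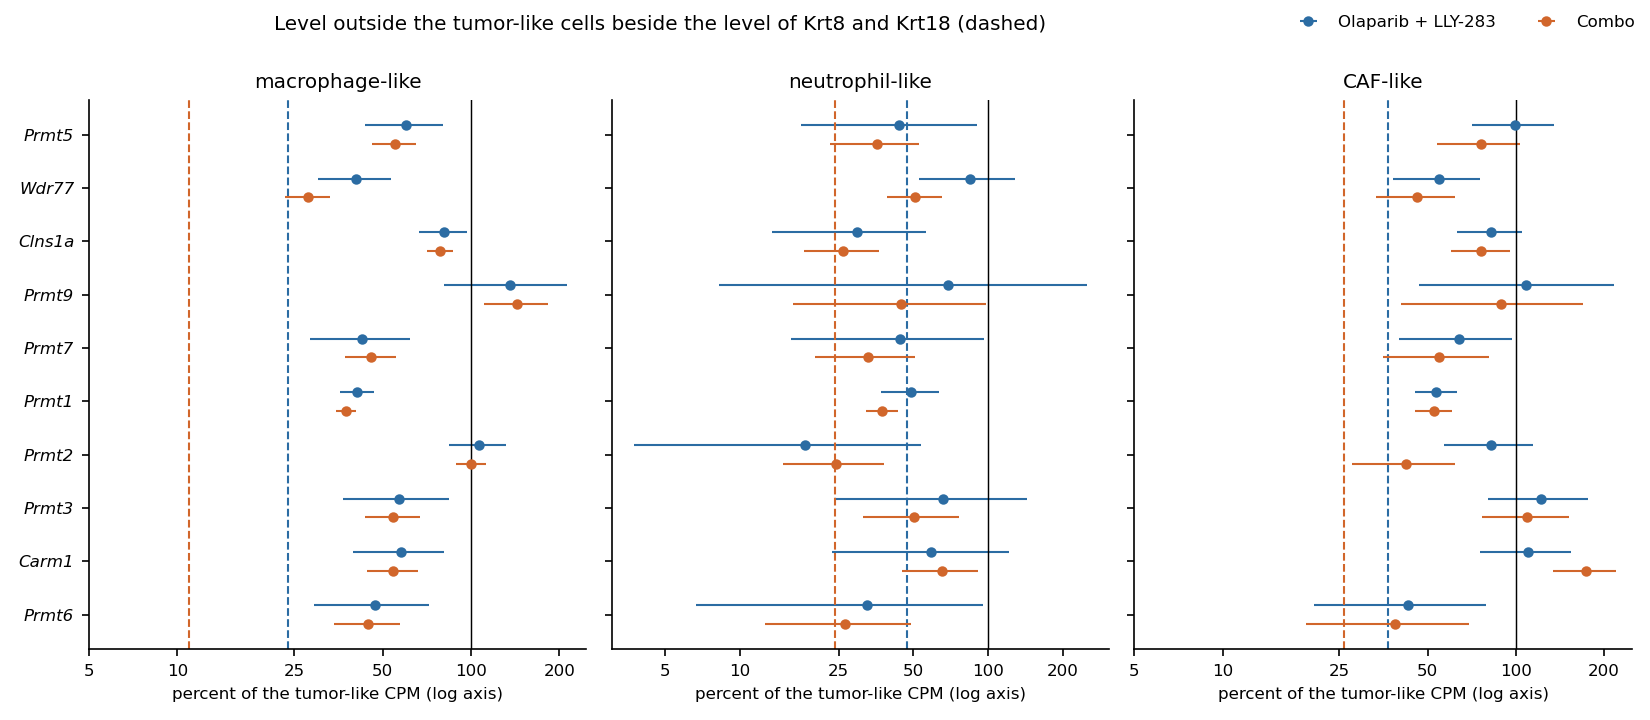
Level of each gene in macrophage-like, neutrophil-like and CAF-like cells as a percentage of its level in tumor-like cells of the same library, on a log axis, with 95% counting intervals as bars and the percentage for Krt8 and Krt18 as dashed lines. In macrophage-like cells the points lie right of the keratin lines in both libraries. In neutrophil-like cells Prmt5 is at 43.9% beside 47.1% for the keratins in Olaparib + LLY-283 and at 35.7% beside 24.3% in Combo.

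In neutrophil-like cells several members stood near or below that background. Wdr77, at 84.3% and 50.8% of its tumor-like level, was above it in both libraries. So were Carm1, at 58.85% and 65.27% from 7 and 34 UMIs, Prmt3, at 65.8% and 50.37% from 6 and 22, and Prmt1, at 48.9% and 37.5%. Prmt9 was above it at 44.65% in the Combo library, from 6 UMIs, and had 2 UMIs, within the floor, in the other. Prmt5 had 7 and 25 UMIs there, at 15.6 and 13.4 CPM, or 43.9% and 35.7% of its tumor-like level. That was below the keratin percentage of 47.1% in the Olaparib + LLY-283 library and above that of 24.3% in the Combo library. Prmt2 had 3 and 20 UMIs, at 6.67 and 10.7 CPM, with log2 ratios of 2.45 (0.90 to 4.73) and 2.03 (1.40 to 2.74). The 3 UMIs, 18.3% of the tumor-like level, were at the floor, so no direction is read from the Olaparib + LLY-283 library. In the Combo library the percentage of Prmt2, 24.5%, was at the keratin percentage, whereas in macrophage-like cells the same gene matched tumor-like cells. The neutrophil-like cells were shallow, with a median of 642 and 1990 UMIs, and came from different clusters in the libraries. They leave out the unnamed cluster b7, where Prmt5 had 0 and 13 UMIs.

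The DC-like class held 182 and 151 cells, and its keratin level was 16.6% and 12.1% of the tumor-like one. Its cells had a median of 88.3 and 36.0 DC marker UMIs per 10000, beside 87.8 and 96.9 macrophage marker UMIs. In macrophage-like cells these medians were 0 and 2.49 for DC markers and 177 and 182 for macrophage markers. The DC-like class is thus not set apart by a lack of macrophage markers. Prmt5 had 9 and 22 UMIs in the DC-like cells, at 20.9 and 15.1 CPM. The T/NK-like class held 87 and 63 cells, with a keratin level of 49.9% and 25.4%. Prmt5 was at 20.9 CPM (3 UMIs) and 38.2 CPM (21 UMIs) there, with log2 ratios of 0.76 (-0.79 to 3.04) and -0.03 (-0.64 to 0.66), too wide to order the classes. In the T/NK-like class Prmt2 had 0 of 143283 UMIs after Olaparib + LLY-283, which by the floor of 3 UMIs allows up to 20.9 CPM, and 34.6 CPM after Combo.

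In CAF-like cells, 240 and 63 of them, Prmt5 was 35.2 CPM (40 UMIs) and 28.4 CPM (40 UMIs), with tumor-like over CAF-like log2 ratios of 0.01 (-0.44 to 0.50) and 0.40 (-0.05 to 0.89), so no difference from tumor-like cells was detectable at this depth. Carm1 was 29.0 CPM (33 UMIs) and 48.2 CPM (68 UMIs), with log2 ratios of -0.13 (-0.63 to 0.41) and -0.79 (-1.14 to -0.42), the level in the Combo library being higher in CAF-like than in tumor-like cells. Wdr77, with log2 ratios of 0.87 (0.40 to 1.39) and 1.12 (0.69 to 1.59), Prmt1, with 0.90 and 0.93, and Prmt6, with 1.22 and 1.37, were higher in tumor-like cells in both libraries. Prmt2 did so in the Combo library, at 1.24 (0.69 to 1.86), and not detectably in the other, at 0.29 (-0.20 to 0.82).

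The keratin level in CAF-like cells was 36.7% and 26.0% of the tumor-like one. The remaining classes were small, with 69 and 24 osteoclast-like, 43 and 15 endothelial-like and 40 and 51 myogenic-like cells. Their keratin levels were 56.7% and 7.08%, 71.1% and 11.3%, and 78.4% and 39.3% of the tumor-like one, in that order. Prmt5 had 9 and 15 UMIs in the osteoclast-like, 13 and 0 in the endothelial-like and 2 and 9 in the myogenic-like cells, and by the floor of 3 UMIs the 0 of 133712 UMIs allows up to 22.4 CPM. These UMI counts are too few to order the classes.

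The libraries were also compared within the non-tumour classes. Over all immune-like cells summed, Prmt1 was 128 and 104 CPM, with a Combo over Olaparib + LLY-283 log2 ratio of -0.31 (-0.46 to -0.15). Wdr77 was 29.2 and 22.1 CPM there, with a ratio of -0.40 (-0.74 to -0.06). For these genes the interval lay below 0, which makes 2 of the 10 (16% of all genes tested), and for 0 it lay above 0 (22%). Past 1.5-fold were 0 higher (7.95%) and 0 lower (4.92%). The immune-like cells of the libraries differ in their makeup and keratin level. After the subtraction of carried-over RNA described above, Prmt1 was 73.4 and 80.2 CPM and Wdr77 was 16.8 and 15.0 CPM in these cells. The subtraction used a keratin share of 30.3% and 13.9%, and gave levels below 0 in some classes of this sum. In the Olaparib + LLY-283 library Prmt2 came to -19.9 CPM in neutrophil-like and -36.3 CPM in T/NK-like cells, so too much can be removed. Under it the order of the libraries turned for Prmt1 and the gap narrowed for Wdr77, with no interval computed. The causes of the differences between the libraries were not tested.

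In macrophage-like cells 8 of the 10 had at least 100 UMIs over both libraries, and 0 of these were over 1.5-fold higher (5.56%) or lower (3.39%) in the Combo library. Wdr77 had the widest point difference of these, with a log2 ratio of -0.35 (-0.83 to 0.14). After the same subtraction it was 12.7 and 12.5 CPM in macrophage-like cells. In CAF-like cells Carm1 had a log2 ratio of 0.73 (0.11 to 1.38) from 33 and 68 UMIs. In osteoclast-like cells Prmt1 was 259 CPM (94 UMIs) and 183 CPM (84 UMIs), with a log2 ratio of -0.50 (-0.94 to -0.06). Carm1 had 13 and 3 UMIs there, with a ratio of -2.45 (-4.91 to -0.59). Those Carm1 counts were under the minimum of 100 UMIs, and the 3 UMIs were at the floor, so no direction is read from them. The 69 and 24 osteoclast-like cells also differed in keratin level, at 56.7% and 7.08% of the tumor-like one.

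Within tumor-like cells, most members differed between phases of the cell cycle. Phases were called from published S and G2M gene lists, which hold none of the 10 genes, in tumor-like cells thinned to 3000 UMIs. The cells of both libraries were scored together and then split by library. The calls placed 43.6% (42.5 to 44.6) and 49.5% (47.2 to 51.7) of cells in G1, 28.0% and 25.4% in S and 28.5% and 25.1% in G2M. A phase is here a range of a score, and 1274 and 275 of the G1 cells lay within 0.05 of a limit. Depth moved with phase, from a median of 7700 and 42689 UMIs in G1 to 12060 and 61762 in G2M.

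Prmt5 went from 28.1 CPM (26.4 to 29.9) in G1 to 38.8 CPM (36.6 to 41.1) in S and 40.0 CPM (38.0 to 42.1) in G2M after Olaparib + LLY-283. In the Combo library it went from 29.4 CPM (27.8 to 31.1) to 41.3 CPM (39.0 to 43.7) and 44.6 CPM (42.3 to 47.0). The G1 levels did not overlap those of S or G2M, and S and G2M overlapped. The log2 ratio of S over G1 was 0.47 (0.34 to 0.59) and 0.49 (0.38 to 0.61), and that of G2M over G1 was 0.51 (0.39 to 0.63) and 0.60 (0.49 to 0.71).

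Wdr77 was highest in S. It was 45.7, 69.0 and 60.6 CPM in G1, S and G2M of the Olaparib + LLY-283 library and 48.8, 85.6 and 71.4 CPM in those of the Combo library, and none of these intervals overlapped within a library. Its S over G1 log2 ratio was 0.59 (0.50 to 0.69) and 0.81 (0.72 to 0.89), and its G2M over S ratio was -0.19 (-0.27 to -0.10) and -0.26 (-0.34 to -0.18). Clns1a had the same order at a smaller size, with S over G1 ratios of 0.39 (0.30 to 0.47) and 0.41 (0.32 to 0.49) and G2M over S ratios of -0.15 (-0.23 to -0.07) and -0.15 (-0.23 to -0.06).

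Prmt2 ran the other way. It was 42.2 CPM in G1, 33.0 CPM in S and 33.9 CPM in G2M of the Olaparib + LLY-283 library, and 48.5, 40.3 and 39.9 CPM in those of the Combo library. Its S over G1 log2 ratio was -0.36 (-0.47 to -0.24) and -0.27 (-0.37 to -0.16), and its G2M over G1 ratio was -0.32 (-0.43 to -0.21) and -0.28 (-0.38 to -0.18). It was the single member below G1 in both of the other phases of both libraries with intervals off 0.

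Prmt1, Prmt3, Carm1 and Prmt7 were higher in S than in G1, with log2 ratios from 0.32 for Carm1 in the Olaparib + LLY-283 library to 0.43 for Prmt7 in the Combo library. In G2M, Carm1 and Prmt7 kept ratios over G1 of 0.41 and 0.38 and of 0.40 and 0.42, while Prmt3 was at 0.10 (-0.05 to 0.26) and 0.18 (0.04 to 0.32), and the first of these was -0.10 with doublets kept. Prmt6 did not differ detectably between S and G1 and was lower in G2M, at -0.33 (-0.49 to -0.18) and -0.20 (-0.35 to -0.04). Prmt9 had intervals that held 0 in all of these comparisons.

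**Figure D4:**
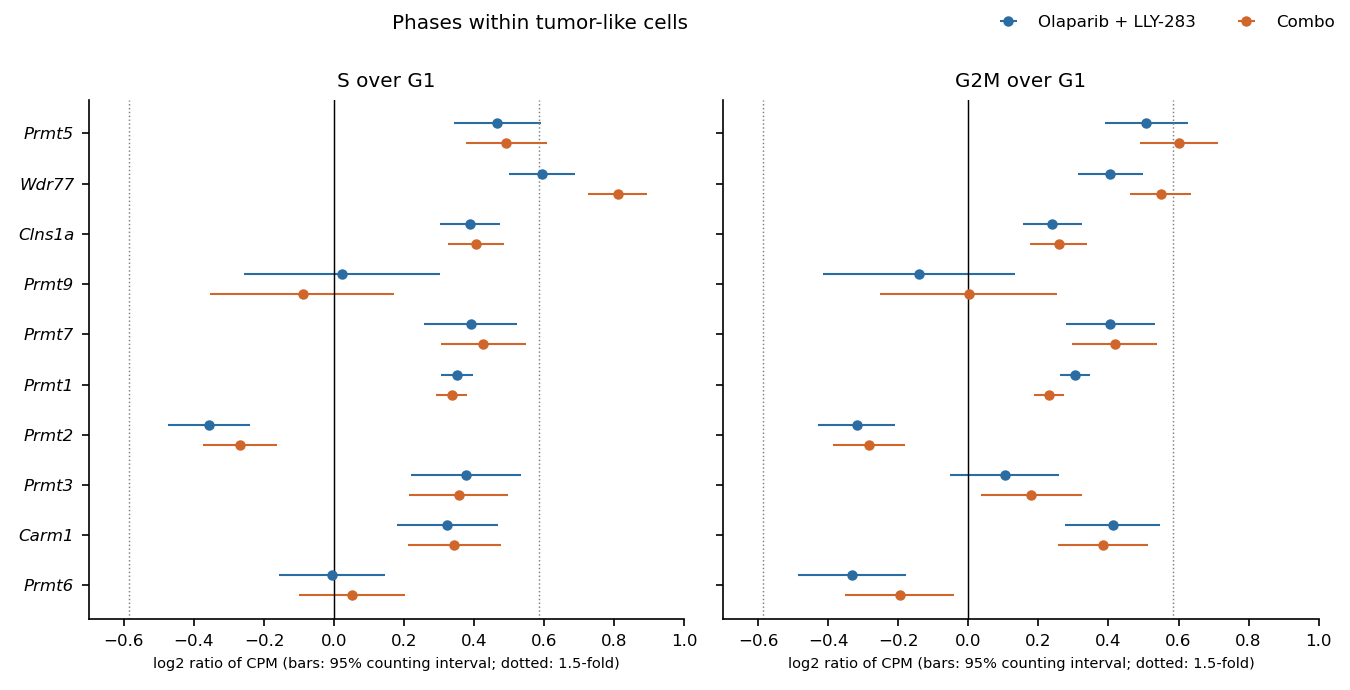
Log2 ratio of CPM of S over G1 (left) and G2M over G1 (right) within tumor-like cells, for each of the 10 genes in both libraries, with 95% counting intervals as bars and dotted lines at 1.5-fold. Wdr77 lies furthest right in S, at 0.59 and 0.81, and Prmt2 is left of 0 in both panels and both libraries.

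Of the 10 genes, 7 had an S over G1 interval above 0 in each library (30.8% and 32.2% of all genes tested) and 1, Prmt2, an interval below 0 (24.7% and 29.6%). Only Wdr77 was over 1.5-fold higher in S, in both libraries (6.9% and 8.71%). For G2M over G1, 6 and 7 intervals lay above 0 (33.6% and 36.6%) and 2, Prmt2 and Prmt6, below it (24.1% and 26%). Past 1.5-fold in G2M were 0 genes in the Olaparib + LLY-283 library and 1, Prmt5, in the Combo library (7.95% and 9.28%). The median log2 ratio of the 10 was 0.36 and 0.35 for S and 0.27 and 0.24 for G2M, beside 0.01 and -0.01, and 0.03 and 0.04, over all genes tested. The counts past 1.5-fold rested on values near that limit and moved with the processing, as did the size of the Prmt5 ratio, while that ratio stayed above 0 in all settings run.

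Comparing the libraries within a phase, 0 of the 10 genes were over 1.5-fold apart in G1 (4.44% higher and 1.87% lower), in S (3.1% and 1.87%) or in G2M (3.58% and 1.62%). The log2 ratio of Wdr77, Combo over Olaparib + LLY-283, was 0.09 (-0.0007 to 0.19) in G1, 0.31 (0.23 to 0.40) in S and 0.24 (0.15 to 0.32) in G2M. That of Prmt2 was 0.20, 0.29 and 0.24, with each interval above 0. The difference of Wdr77 between the libraries was thus seen in S and G2M cells, with a counting interval in S that did not overlap that of G1. It was not shared by all clusters, as given below.

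Among the tumor-like clusters, 8 held at least 100 cells in each library. Prmt5 ran over them from 25.6 to 45.9 CPM after Olaparib + LLY-283 and from 26.6 to 49.1 CPM in the Combo library. Its highest level was in the same cluster in both, cluster a6, led by replication-dependent histone genes such as Hist1h1b, at 45.9 CPM (42.7 to 49.3) and 49.1 CPM (45.8 to 52.6). An unnamed keratin cluster, b1, also led by histone genes, had Prmt5 at 47.1 and 47.5 CPM. In the unnamed cluster b0, led by the matrix genes Aspn, Mgp and Dcn, Prmt5 was 24.2 and 29.2 CPM. Krt8 and Krt18 were 486 and 42.1 CPM in b0, beside at least 653 and 63.4 CPM in the tumor-like clusters. The marker list closest to b0 was that of CAF-like cells, with 4 of 10 markers over 2-fold.

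Wdr77 had its lowest level in both libraries, 34.9 CPM (31.6 to 38.5) and 33.4 CPM (30.5 to 36.6), in cluster a4. This cluster was led by Adm, Pgf, Dusp4, F3 and Hilpda, of which Adm, Pgf and Hilpda are known to respond to low oxygen. A link of the levels to oxygen was not tested, and the phase makeup of the clusters was not computed. Clns1a, at 52.7 and 53.1 CPM, Prmt7, at 17.3 and 20.7 CPM, and Prmt1, at 191 and 185 CPM, were also lowest in a4 in both libraries. Prmt5 was 29.8 and 26.6 CPM there. Prmt2 was 36.7 and 43.9 CPM in a4, close to its level over all tumor-like cells. The clusters with the highest Wdr77 were a3 in the Olaparib + LLY-283 library, at 74.4 CPM, and a2 in the Combo library, at 94.2 CPM.

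In cluster a2 Wdr77 was 71.2 CPM (67.0 to 75.5) against 94.2 CPM (87.3 to 101), a log2 ratio of 0.40 (0.27 to 0.54) between the libraries. Over the 8 clusters its ratio ran from -0.08 to 0.40, with the interval above 0 in 3 and below 0 in 0. In the unnamed clusters it was -0.39 (-0.62 to -0.16) in b0 and 0.14 (-0.02 to 0.30) in b1. Prmt7 differed most in cluster a5, led by Klk10 and Cryab, at 23.9 CPM (21.1 to 26.9) in 1369 cells after Olaparib + LLY-283 and 39.6 CPM (33.3 to 46.8) in 105 cells after Combo, a log2 ratio of 0.73 (0.42 to 1.03). In the cluster led by the interferon-response genes Ifit3 and Cxcl10, a13, Prmt5 was 38.6 and 38.1 CPM and Wdr77 60.2 CPM in both libraries. Over the 8 clusters the Prmt5 ratio ran from -0.16 to 0.47, with the interval above 0 in 1 and below 0 in 0. The 1 was a2, at 0.27 (0.08 to 0.46). The highest was a15, with Il24, AW112010 and Iigp1 among its leading genes, at 25.8 and 35.8 CPM, or 0.47 (-0.0007 to 0.99). These extremes were picked from 8 clusters after their values were seen.

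**Figure D5:**
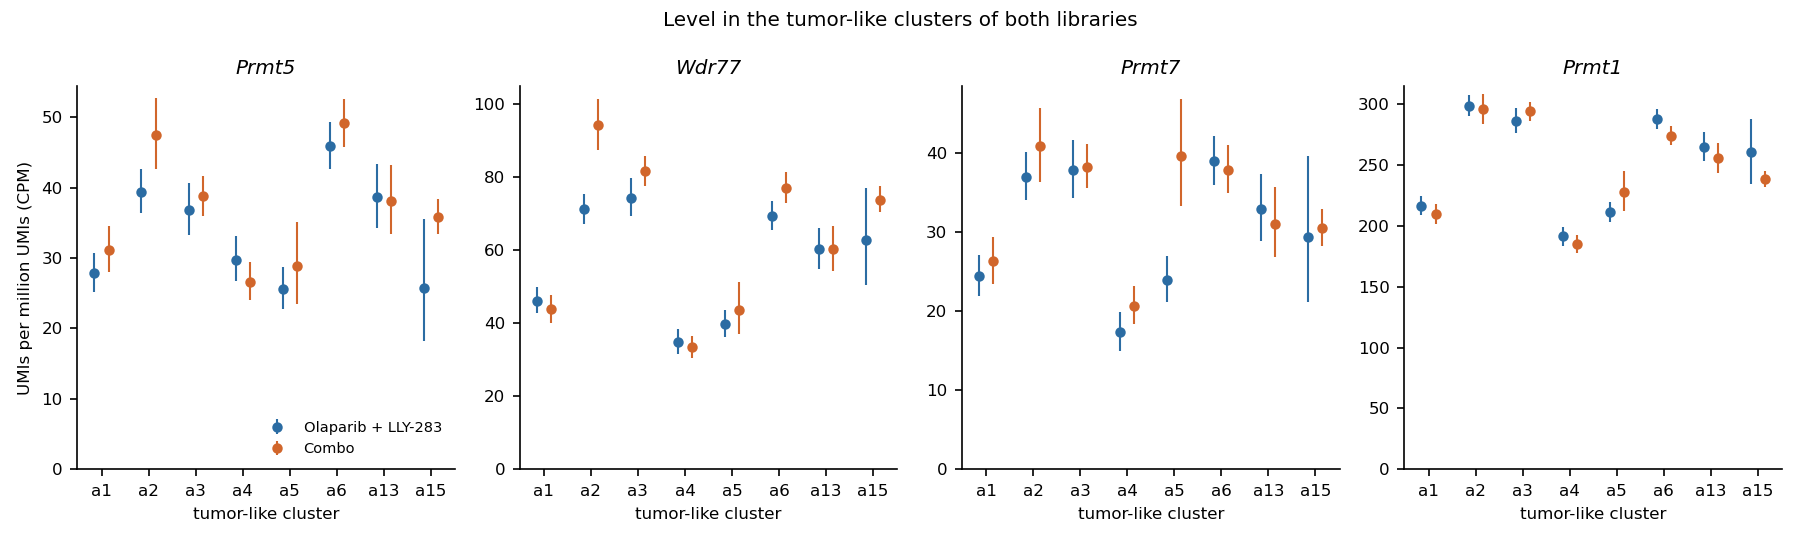
CPM of Prmt5, Wdr77, Prmt7 and Prmt1 in the 8 tumor-like clusters with at least 100 cells in each library, with blue for Olaparib + LLY-283, orange for Combo and bars for the 95% Poisson interval. Wdr77, Prmt7 and Prmt1 are lowest in cluster a4 in both libraries, and Prmt7 in a5 is 23.9 CPM in one library and 39.6 CPM in the other.

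The wider pathway was followed through 24 further genes for other PRMT5 adaptors, the methionine and polyamine cycles, arginine methylation readers and removers, and Sm protein substrates. Prmt8, a methyltransferase gene known for its expression in brain, had 0 UMIs in the tumor-like cells of both libraries, which by the floor of 3 UMIs allows up to 0.0293 CPM in each, and the other 23 were compared. Riok1 was 55.4 and 55.9 CPM in tumor-like cells, with a log2 ratio between the libraries of 0.01 (-0.04 to 0.07), and Coprs was 10.4 and 12.2 CPM, with 0.23 (0.11 to 0.34). Mtap, for the enzyme that clears methylthioadenosine, a natural inhibitor of PRMT5, was detected in both libraries, at 155 and 179 CPM. Mat2a, for the synthesis of S-adenosylmethionine, was 111 and 104 CPM.

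Between the libraries 0 of the 23 were over 1.5-fold higher in the Combo library (4.75% of all genes tested) and 1 was lower (2.19%), Ddah1, whose product breaks down free asymmetric dimethylarginine, at 20.2 and 13.2 CPM with a log2 ratio of -0.61 (-0.71 to -0.51). Against macrophage-like cells 15 of the 23 were over 1.5-fold higher in tumor-like cells in each library (34.8% and 35.8% of all genes tested) and 0 were lower (21.4% and 24.3%). The tumor-like sums held 102407364 and 102407882 UMIs, and the macrophage-like sums 2169182 and 7006213. The minimum of UMIs was set over both sides, so a gene could reach it on the tumor-like side alone. These counts and shares thus rest on unequal depth. Ddah1 had log2 ratios of 2.28 (1.36 to 3.41) and 3.21 (2.33 to 4.27) and Mtap of 1.77 (1.48 to 2.07) and 2.34 (2.16 to 2.53). The keratins in macrophage-like cells were at 23.8% and 10.99% of their tumor-like level. By its point ratios Ddah1 did not exceed that background in either library, so the size of its ratio is not read. None of the pathway ratios was corrected for carried-over RNA. The polyamine genes Odc1, at 1.27 and 1.75, Amd1, at 1.23 and 1.78, Srm, at 1.23 and 1.87, and Sms, at 0.89 and 1.11, were higher as well.

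The list held the Sm and Sm-like genes Snrpb, Snrpd1, Snrpd3 and Lsm4, whose products are PRMT5 substrates. All but Snrpb are named here as past 1.5-fold in both libraries. The log2 ratios were 0.86 and 1.08 for Snrpd1, 0.86 and 0.93 for Snrpd3 and 0.80 and 0.84 for Lsm4. Also past 1.5-fold in both libraries were Ddah2, Ndufaf7, Snd1 and Coil, the last from 5 and 27 UMIs in macrophage-like cells. Of the adaptors, Riok1 was also higher in tumor-like cells in both libraries, by less than Wdr77, with log2 ratios of 0.53 (0.22 to 0.86) and 0.50 (0.33 to 0.68). Coprs had ratios of -0.46 (-0.97 to 0.11) and -0.43 (-0.71 to -0.14). Mat2a, which is no adaptor, had ratios of -0.16 (-0.33 to 0.02) and -0.03 (-0.14 to 0.08).

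Across phases, Srm, for spermidine synthase, had the S over G1 log2 ratios 0.84 (0.77 to 0.91) and 0.91 (0.85 to 0.97) and was past 1.5-fold in both libraries. In all, 1 of 22 and 6 of 23 list genes were past 1.5-fold higher in S (6.9% and 8.71% of all genes tested), and 1 of 22 and 5 of 23 in G2M (7.95% and 9.28%). Lsm4 was past it in G2M of both libraries, at 0.69 and 0.70. Riok1, unlike Wdr77, was at -0.06 (-0.16 to 0.03) and 0.13 (0.03 to 0.22) for S over G1.

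Over the 18 points formed by 9 named classes in both libraries, the genes whose log2 level was most like that of Prmt5, of 7718 compared, were Timm21 (Pearson r of 0.949), Ppan (0.946), 5730480H06Rik (0.940), Prps1 (0.928) and Gnpat (0.927). Among the members, r was 0.502 for Prmt1, 0.470 for Prmt3, 0.440 for Wdr77, 0.283 for Prmt7 and 0.246 for both Carm1 and Prmt6. It was 0.089 for Clns1a, -0.021 for Prmt2 and -0.186 for Prmt9. Prmt5 had 0 UMIs at 1 of these points, the 15 endothelial-like cells of the Combo library. That point lies far below its others on the log2 scale, so each r leans on it, and r without it was not computed. Points of 1 library share its depth and carried-over RNA, and the small classes rest on few UMIs, so these are descriptions.

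In single tumor-like cells at 3000 UMIs, Prmt5 had a UMI in 10.99% (9.37 to 12.8) of the 1347 cells with a Wdr77 UMI and in 8.62% (8.004 to 9.27) of the 7665 without one in the Olaparib + LLY-283 library. In the Combo library the shares were 8.81% (5.84 to 12.7) of 295 cells and 10.2% (8.76 to 11.7) of 1651, in the opposite order and with overlapping intervals. A UMI of each of Prmt5, Wdr77 and Clns1a was seen in 28 of 9012 and 4 of 1946 cells. At this depth the presence of the complex's transcripts in 1 cell cannot be read from single cells.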

How the data were processed

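Both libraries were 10x Genomics 3′ libraries, and the authors deposited UMI counts per gene and cell made with Cell Ranger on mm10 (version 6.1.2 in the file headers, a later one in the methods). Whether intronic reads were counted is not given in the sources used here. Cells with under 200 genes or 20% or more mitochondrial UMIs were left out. Scrublet's own threshold called 0 cells in either library, so the highest-scoring cells were removed at 0.8% per 1000 cells, 2055 (12.8%) and 284 (4.77%), a rule chosen after seeing the data. The remaining 13974 and 5672 cells were scaled to 10000 counts, and 2000 variable genes without the members, 30 principal components, 20 neighbors and Leiden resolution 1.3 gave clusters (scanpy 1.11.5, leidenalg 0.10.2), named from fixed markers. A second round clustered the cells outside the tumor-like clusters. Tumor-like clusters had Krt8 and Krt18 both over 2-fold above the median of clusters with another name.

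UMI sums per class carry exact Poisson intervals, shares Clopper-Pearson intervals and ratios conditional binomial intervals (scipy 1.17.1), at 95%. The code for the ratio intervals and for thinning was run on simulated counts. Those counts were drawn from the models that the formulas assume, so the runs check the code and not the spread between cells. Genes with at least 100 UMIs over both sides of a comparison were tested against 1.5-fold. UMI sums of 3 or fewer were taken as the floor. Phases used the scanpy score with 43 S and 54 G2M genes. Named genes were the 10 members, Riok1, Coprs, Mtap and Mat2a, further pathway genes past 1.5-fold the same way in both libraries or between them, and the 5 genes most like Prmt5. Members and lists were chosen with earlier results of these data known. Alternatives changed the filters, doublets, clustering, class calls, scaling, phase calls and depth.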

Additional observations from a re-analysis of the deposited data

Results flagged for a closer look

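The cells left out by the filter on mitochondrial UMIs and gene number were set aside from the comparisons given above, except under the setting with no mitochondrial limit, and they too held UMIs of these genes. In the Olaparib + LLY-283 library 86 such cells held 60014 UMIs, and 1 member, Prmt1, had more than the floor of 3 UMIs, with 6 UMIs or 100 CPM (36.7 to 218). In the Combo library 1586 such cells held 1393631 UMIs, and 10 members had more than 3 UMIs. Among them were Prmt1, with 210 UMIs or 151 CPM (131 to 172), Wdr77, with 59 UMIs or 42.3 CPM (32.2 to 54.6), and Prmt5, with 33 UMIs or 23.7 CPM (16.3 to 33.3). The median of these cells was 652 and 746 UMIs. The floor of 3 UMIs stood at 50.0 and 2.15 CPM in the 2 sums, so the counts of 1 and 10 members cannot be compared. The share of all genes above the floor was not computed.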

How the results depend on the processing

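The Prmt5 ratio kept its sign under every setting run, and the counts between libraries were 0 in all 13. Of the 70 single ratios, 9 turned sign under at least 1 setting, 5 of Prmt9, 3 of Prmt6 and 1 of Prmt3, and 0 of these had an interval off 0. Against immune-like cells Prmt9 ran from -0.55 to 0.38 and from -0.52 to 0.26. Against immune-like cells, centring on the median gene gave 4 members past 1.5-fold in the Olaparib + LLY-283 library (23.4% of all genes tested). In the Combo library it gave a Prmt5 log2 ratio of 0.69. Keeping doublets gave 0 and 4 members (3.21% and 19.4%) and Prmt5 ratios of 0.21 and 0.34. Calling each cell by its own markers gave a Prmt5 ratio of 1.20 in the Combo library, and subtracting free tumour RNA, added after seeing the data, gave 1.29 and 1.12.

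For S over G1 in the Olaparib + LLY-283 library, 0 members were over 1.5-fold higher with centring, where 6.65% of all genes tested were. The count was also 0 with no mitochondrial limit (7.67%), with a 10% limit (7.06%) and with doublets kept (5.49%). With the mean of single cells it was 0 too, and no share of all genes was computed there. Phases called on all UMIs gave 2 members (8.69%). Phases taken from the top and bottom of the ranked list shares gave 4 higher (14.4%) and 1 lower (6.96%). In G2M they gave 1 higher (11%). In the Combo library the members over 1.5-fold higher in S were 2 with all UMIs (10.5%) and 2 with ranked shares (15.4%). They were also 2 with no mitochondrial limit (10.3%) and with the unnamed clusters b0 and b1 added as tumor-like after seeing the data (9.99%). In G2M there they were 0 with centring (8.26%), the mean of single cells or doublets kept (7.4%). With ranked shares (12.8%) or clusters b0 and b1 added (10.1%) they were 2. The Prmt5 S over G1 log2 ratio was 0.59 and 0.62 with all UMIs, 0.82 and 0.79 with ranked shares and, in the Combo library, 0.63 with no mitochondrial limit and 0.68 with clusters b0 and b1. With doublets kept its G2M over G1 ratio in the Combo library was 0.45. The causes were not tested.

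The share of tumor-like cells with Prmt5 was 3.21% and 3.46% at 1000 UMIs and 27.7% and 71.4% without thinning. Between libraries, genes higher and lower made up 8.47% and 4.87% with a minimum of 20 UMIs, 20.1% and 16.7% with 1 UMI, and 1.27% and 0.382% past 2-fold. No paired analysis was possible because each treatment had 1 library, and for the same reason no library could be left out.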
